A study of Mus musculus with 8 samples.

Results

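The proteasome is the barrel-shaped protease that degrades ubiquitin-tagged proteins in every nucleated cell. The genes encoding it in the mouse were chosen here by symbol: every row whose name starts with Psma, Psmb, Psmc, Psmd or Psme followed by a digit was taken. The rule used no measured value and returned 45 of the 24421 genes listed in each count table. Of these, 19 encode the core particle (8 Psma and 11 Psmb genes), 20 belong to the regulatory particle (6 Psmc and 14 Psmd genes) and 5 encode activators (Psme). The remaining row, Psmc3ip, shares the spelling only: it encodes a meiotic recombination factor and is no proteasome subunit, so it was kept out of the classes.

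RNA came from R1, a line of mouse embryonic stem (ES) cells, in 2 states. Undiff denotes the ES cells before differentiation, and Day4 denotes embryoid bodies, aggregates of differentiating ES cells, after 4 days with retinoic acid (RA), a vitamin A derivative that drives differentiation. The labels give the tissue as embryoid bodies for both states and the RA dose as 2 mM, whereas the design text gives 2 µM and the methods describe Undiff as cells kept in growth medium. That medium held leukaemia inhibitory factor (LIF). By the methods, the embryoid bodies had first spent 4 days in low adherence dishes without LIF, before RA was added. RA, loss of LIF, time and culture format thus changed together between the states and cannot be told apart. Poly(A) RNA was sequenced by Oxford Nanopore Technologies (ONT) on 2 platforms, ONT Direct RNA (kit SQK-RNA002, input 500 ng), which reads the native RNA strand, and ONT cDNA (kit SQK-PCS108, input 50 ng), which reads cDNA amplified by PCR. Each combination of state and platform had 2 replicates, so 8 libraries were compared. All cells were of 1 line, and an embryoid body holds several cell types. In such bulk RNA, fewer cells of a type and less RNA per cell cannot be told apart.

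Direct RNA libraries held 283461 to 907489 reads on genes, and cDNA libraries held 948657 to 2088592. Levels are given as CPM, reads per 1e6 reads on genes, and 3 reads in a library amount to between 1.44 and 10.6 CPM. The 8 pluripotency markers summed to 11482 and 13725 CPM in the Direct RNA Undiff libraries and to 116 and 544 CPM in the Day4 libraries, and all 8 were called lower on both platforms. The RA-response markers moved the other way, with 7 of 7 tested called higher in Direct RNA and 8 of 8 in cDNA. Hoxb2, Rarb, Cyp26a1 and Stra6 had 0 reads in both Direct RNA Undiff libraries and passed the filter on low counts (a mean normalized count of at least 5) through Day4, so these counts only describe the markers.

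The core particle (20S) is a stack of rings. The outer rings hold the alpha subunits (Psma1 to Psma7), which form the gate, and the inner rings hold the beta subunits, of which Psmb5, Psmb6 and Psmb7 carry the active sites. Interferon and cells of the immune system bring in Psmb8, Psmb9 and Psmb10 in place of Psmb5, Psmb6 and Psmb7, giving the immunoproteasome, and Psmb11 and Psma8 belong to variants of thymus and testis. The regulatory particle (19S) caps the core: its base holds the ATPases (Psmc1 to Psmc6) that unfold substrates, and its lid holds the enzyme that removes ubiquitin (Psmd14). The activators open the gate without ATP. Psme1 and Psme2 form PA28, which interferon also induces, Psme3 forms a nuclear PA28, and Psme4 is PA200, a nuclear activator. Since the subunits act in fixed ratios, their mRNAs are known to be controlled together, with Nfe2l1 as the factor that raises them when proteasome activity is short.

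A few subunits have near-identical copies of their mRNA elsewhere in the mouse genome, so their reads may not be placed uniquely. Among the 45 members, 11 had a copy of at least 90% identity over at least 50% of the transcript in the GENCODE annotation of GRCm38, and 4 of these reached 98%. The following stretches of coding sequence show why, since each spans an exon junction of the parent gene, with 30 bases on either side, and is continuous in the intronless copy. They are printed 5′ to 3′ on the transcript strand, and capitals mark the bases that differ.
Psma5: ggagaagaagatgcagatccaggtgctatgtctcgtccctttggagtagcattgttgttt
Gm8394: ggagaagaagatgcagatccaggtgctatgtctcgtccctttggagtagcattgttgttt
Psmb5: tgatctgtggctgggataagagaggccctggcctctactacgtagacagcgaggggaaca
Gm3375: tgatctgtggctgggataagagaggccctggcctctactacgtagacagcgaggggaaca
Psme2: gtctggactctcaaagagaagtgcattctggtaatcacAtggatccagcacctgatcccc
Psme2b: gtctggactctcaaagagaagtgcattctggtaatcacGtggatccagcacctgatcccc
The Psma5 stretch joins exon 5 (chr3:108267871-108267900, plus strand) to exon 6 (chr3:108268033-108268062), and its match lies in the processed pseudogene Gm8394 at chr10:85313938-85313997. The Psmb5 stretch joins exon 2 (chr14:54616515-54616544, minus strand) to exon 3 (chr14:54614452-54614481), with its match in the processed pseudogene Gm3375 at chr7:3181569-3181628. The Psme2 stretch joins exon 6 (chr14:55589301-55589330, minus strand) to exon 7 (chr14:55588483-55588512). It differs by 1 base from the single-exon gene Psme2b at chr11:48945729-48945788, minus strand. Over these windows a read of Psma5 or Psmb5 is told from its pseudogene only by how it is spliced.

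These members also held few reads. Psmb5, the chymotrypsin-like active site of the standard proteasome, had 0 and 0 reads in Direct RNA Undiff, 0 and 3 in Direct RNA Day4, 3 and 16 in cDNA Undiff, and 2 and 7 in cDNA Day4. Psma5, an alpha ring subunit, had 6 and 17 reads in Direct RNA Undiff, 0 and 8 in Direct RNA Day4, 27 and 94 in cDNA Undiff, and 54 and 69 in cDNA Day4. Both belong to the standard particle, and they were the lowest of the 14 standard core subunits in all 4 groups. Per kilobase of transcript, Psmb5 stood at 0 and Psma5 at 14.5 CPM per kb in Direct RNA Undiff, where the median of the 14 was 434 CPM per kb and the highest, Psmb6, reached 900 CPM per kb. In cDNA Undiff, Psmb5 stood at 6.02 and Psma5 at 29.6 CPM per kb, against a median of 567 and a highest level of 2485 CPM per kb, again that of Psmb6. Psmb5 matches its copy at 98.9% identity over 88.4% of the transcript, and Psma5 at 98.6% over 76.5%.

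**Figure D1:**
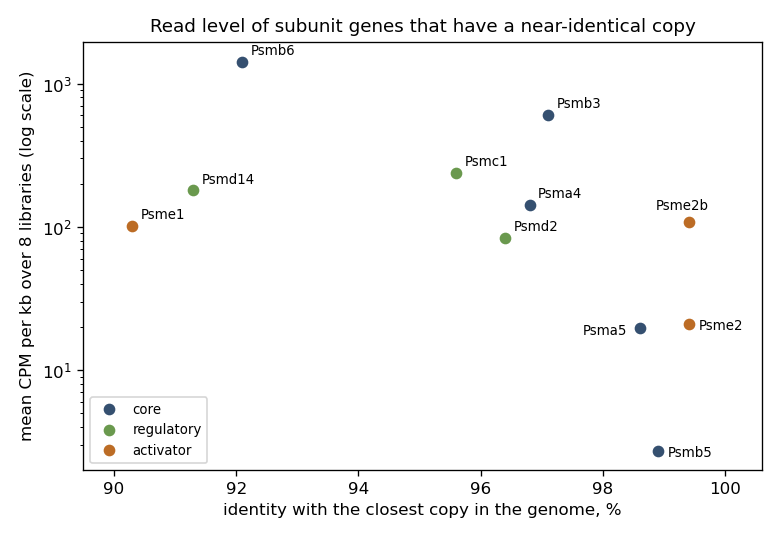
Mean level over the 8 libraries (CPM per kb of transcript, log axis) against the percent identity with the closest copy, for the 11 members that have one. Each point is 1 gene, coloured by class, and Psmb5 (2.75 CPM per kb) and Psma5 (19.6 CPM per kb) lie at the lower right, whereas Psmb3 with 97.1% identity stands at 602 CPM per kb.

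The level did not follow identity alone, as the plot of level against identity shows. Psmb3, a structural beta subunit, has a copy at 97.1% identity and averaged 602 CPM per kb over the 8 libraries. Psma4, with a copy at 96.8%, averaged 142 CPM per kb, and Psmd2, with a copy at 96.4%, averaged 83.6 CPM per kb. Only the copies of Psme2 and Psme2b, which are each other's closest match, have rows of their own in the tables, so reads that went to the other 9 copies were not counted here. Reads set aside for low alignment quality, over all genes, numbered 84783 to 347698 per Direct RNA library and 512068 to 1065938 per cDNA library. Whether reads of Psmb5 and Psma5 were placed on their copies or set aside in this way was not tested. The values of Psmb5, Psma5, Psme2 and Psme2b are therefore uncertain. Psmb11, the thymus subunit, had 0 reads in every library. With Psma8, Psmb8 and Psmb9, 7 members had at most 3 reads in at least 1 library, and 36 members had at least 10 reads in every library.

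The first comparison asked how the subunit mRNAs stood after differentiation. In Direct RNA the subunits were mostly lower at Day4, by a moderate amount: the median log2 fold change (Day4 over Undiff, DESeq2) of the 40 members with a mean normalized count of at least 5 was -0.67, with quartiles of -0.91 and -0.34. The value was below 0 for 38 of the 40, against 48.9% of the 9646 genes tested, whose median was 0.03. A differentially expressed gene (DEG) needed an adjusted p of at most 0.05 and a shift of 1 or more on the log2 scale in either direction. By this rule 6 members were called lower (Psma8, Psmb3, Psmb10, Psmc5, Psme3 and Psme4) and 0 higher, where 7.67% of all genes tested were called lower and 9.54% higher. Psma8 passed the filter on low counts through its Undiff reads, so its call is no support for the count. With edgeR 7 members were called lower (15.1% of all genes) and 1 higher (18.7%). Without 1 library the calls changed: 0 members were called lower when either Undiff library was left out, 1 (Psmb3) without Day4 replicate 1, and 3 (Psma2, Psmb3 and Psmc5) without Day4 replicate 2. The share of all genes called lower also dropped, to 2.45% and 1.42% without Undiff replicate 1 or 2 and to 4.02% and 3.14% without Day4 replicate 1 or 2. In normalized counts, both Day4 libraries lay below both Undiff libraries for 32 of the 40 members and above them for 2 (Psme1 and Psme2b), while 33.5% of all genes lay below and 34.3% above.

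In cDNA most members were also below 0. Over the 44 members tested the median log2 fold change was -0.40, with quartiles of -0.85 and -0.15, and 40 of the 44 (90.9%) were below 0, against 49.9% of 10271 genes with a median of 0.00. DESeq2 called 3 members lower (Psma8, Psmb9 and Psmb10) and 0 higher, where 9.24% of all genes were called lower and 8.69% higher. Psma8 and Psmb9 passed the filter on low counts through their Undiff reads, so their calls do not add to the count as support. edgeR called 5 lower (Psma8, Psmb3, Psmb8, Psmb9 and Psmb10), where 15.6% of all genes were. Psmb8 also passed that filter through its Undiff reads. Psma8, Psmb8 and Psmb9 are thus no support for the edgeR count or for the 40 below 0. Both Day4 libraries lay below both Undiff libraries for 24 of the 44 and above for 1 (Psme2), where 32.3% of all genes lay below and 34.7% above. These cDNA values depend on the scaling. By the mean log2 scaling factors of the libraries, Day4 over Undiff stood 0.33 higher on the CPM scale than after DESeq2 scaling in cDNA and 0.10 higher in Direct RNA, and single genes moved by other amounts. On CPM the count below fell to 16 and the count above rose to 8, where 2378 of the 10271 genes lay below and 4429 above. Of the 40 members tested on both platforms, 21 lay below on both (52.5%) and 0 above on both, where 24.6% of 8720 genes lay below on both and 25.2% above.

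**Figure D2:**
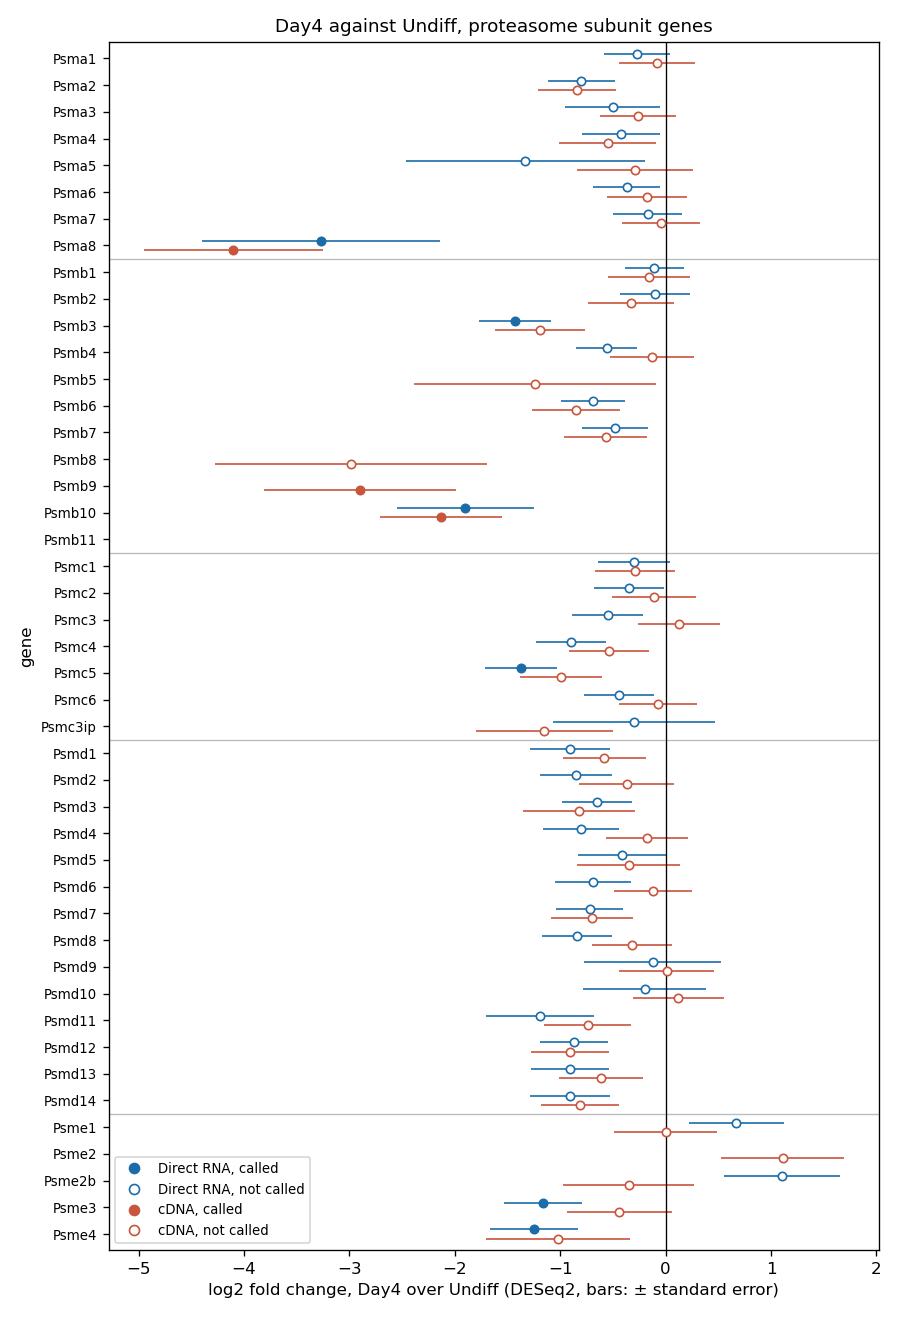
Log2 fold change of Day4 over Undiff (DESeq2, bars ± standard error) for each member with a mean normalized count of at least 5, by class and platform, with filled points for members called as DEGs. Most points lie to the side of lower levels at Day4 on both platforms, at medians of -0.67 in Direct RNA and -0.40 in cDNA.

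By class, the regulatory particle showed the most even shift in Direct RNA. Its 20 genes summed to 6687 and 5737 CPM in the Undiff libraries and to 3782 and 4116 CPM in the Day4 libraries (6212 ± 672 against 3949 ± 236, mean ± SD, n = 2), and the groups did not overlap. All 20 log2 fold changes were below 0, between -1.37 and -0.12 with a median of -0.76, and 18 of the 20 had both Day4 libraries below both Undiff libraries, where 33.5% of all genes did. In cDNA the 20 genes summed to 7110 and 7564 CPM in Undiff and to 6672 and 6370 CPM in Day4, also without overlap. Their median log2 fold change was -0.36 with 17 of 20 below 0, but -0.03 when taken from mean CPM, so the size of the cDNA regulatory median depended on the scaling. DESeq2 called 1 regulatory member lower in Direct RNA (Psmc5, with 7.67% of all genes) and 0 in cDNA (9.24% of all genes), where edgeR also called 0.

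Core genes summed to 6262 and 6225 CPM in the Direct RNA Undiff libraries and to 3990 and 5540 CPM in Day4 (6243 ± 26.2 against 4765 ± 1096, n = 2). The groups did not overlap, but the Day4 replicates stood far apart. The cDNA sums were 12493 and 10648 CPM in Undiff and 11477 and 9469 CPM in Day4, and these groups overlapped. The median log2 fold change of the core was -0.50 over 15 genes in Direct RNA and -0.56 over 18 genes in cDNA. With at least 10 reads required in every library it was -0.30 over 12 genes and -0.13 over 14 genes. The cDNA value included the low-count variant subunits: over the 14 subunits of the standard particle alone it was -0.31. Of these 14, 7 lay below without overlap in normalized counts, where 32.3% of all genes did. In CPM 3 lay below and 2 above, where 2378 of 10271 genes lay below and 4429 above. The Direct RNA median of the standard particle was -0.48 over 13 of the 14. Leaving out Direct RNA Day4 replicate 2 moved the Direct RNA core median to -0.84, and leaving out Day4 replicate 1 moved it to -0.22.

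The 5 activator genes summed to 758 and 591 CPM in Direct RNA Undiff and to 494 and 560 CPM in Day4, without overlap. In cDNA the sums were 373 and 196 CPM in Undiff and 365 and 275 CPM in Day4, with overlap. Their members did not share a direction. In Direct RNA 2 of the 4 tested were called lower (Psme3 and Psme4), where 7.67% of all genes were, and the other 2 (Psme1 and Psme2b) had both Day4 libraries above both Undiff libraries without passing the DESeq2 threshold.

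**Figure D3:**
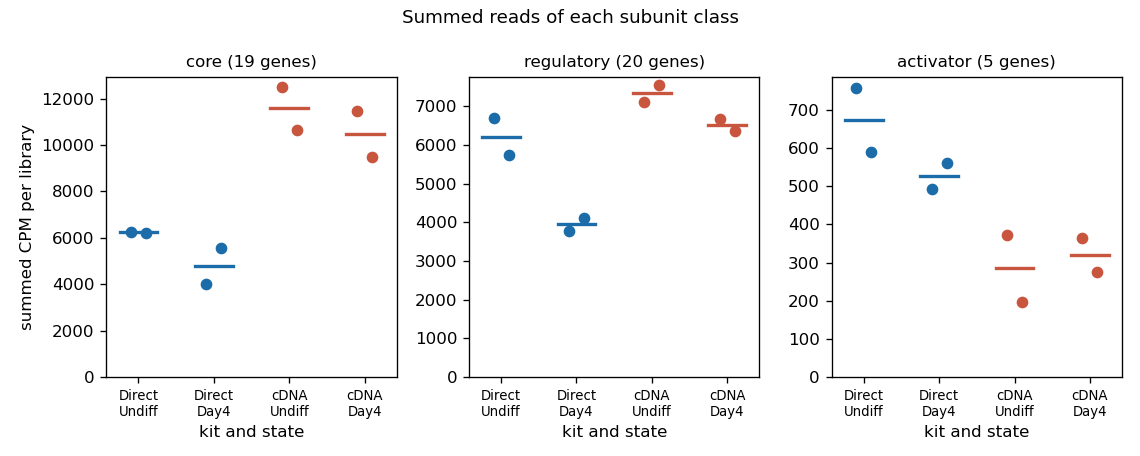
Summed CPM of the core (19 genes), regulatory (20 genes) and activator (5 genes) classes in each of the 8 libraries; points are libraries and bars are means. Regulatory sums are lower at Day4 on both platforms without overlap, core sums overlap between the states in cDNA, and core sums are higher in cDNA than in Direct RNA.

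No alpha subunit of the standard ring was called. The 7 alpha subunits had a median log2 fold change of -0.42 in Direct RNA and -0.26 in cDNA, and neither DESeq2 nor edgeR called any on either platform. Psma5 had the lowest Direct RNA value from few reads, 6 and 17 in Undiff against 0 and 8 in Day4 (-1.33 ± 1.13, adjusted p = 0.627), and stood at -0.29 ± 0.55 in cDNA. Psma7 gave the smallest shift, with 405 and 551 CPM in Direct RNA Undiff against 374 and 541 CPM in Day4 (log2 fold change -0.17 ± 0.33 SE) and -0.04 ± 0.37 in cDNA. Psma2 had the largest among those with at least 10 reads in every library, with 715 and 680 CPM in Direct RNA Undiff against 314 and 529 CPM in Day4 (-0.80 ± 0.32, adjusted p = 0.094) and 1882 and 1575 CPM against 1202 and 1196 CPM in cDNA (-0.84 ± 0.37, adjusted p = 0.135). Its Day4 libraries lay below its Undiff libraries on both platforms.

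Among the structural beta subunits Psmb3 stood out. It had 413 and 378 CPM in Direct RNA Undiff and 145 and 163 CPM in Day4, and in cDNA 962 and 729 CPM in Undiff and 564 and 334 CPM in Day4. Day4 lay below Undiff on both platforms without overlap. Psmb3 (chr11:97703399-97713500) fell in Direct RNA (log2 fold change -1.43 ± 0.34, DESeq2 adjusted p = 0.00067), whereas in cDNA the value was -1.19 ± 0.43 with an adjusted p of 0.051 by DESeq2 and of 0.0129 by edgeR. The Direct RNA call was lost without either Undiff library (adjusted p of 0.109 and 0.206). The other 3 structural beta subunits (Psmb1, Psmb2 and Psmb4) had Direct RNA values of -0.56 to -0.10 and cDNA values of -0.33 to -0.13, and none was called.

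Of the 3 catalytic subunits of the standard particle, Psmb6 and Psmb7 passed the filter on low counts on both platforms. Psmb6 has a copy with 92.1% identity over 89.8% of its transcript, and Psmb7 shares 34.9% of its exon bases with Nek6 on the opposite strand. Psmb6, the caspase-like subunit and the core gene with the highest level per kilobase in 3 of the 4 groups, had 772 and 664 CPM in Direct RNA Undiff and 385 and 552 CPM in Day4. In cDNA it had 2420 and 1546 CPM in Undiff and 1589 and 1118 CPM in Day4. The Direct RNA groups did not overlap and the cDNA groups overlapped in CPM, and the log2 fold changes of -0.69 ± 0.30 (adjusted p = 0.134) and -0.85 ± 0.42 (adjusted p = 0.215) passed no threshold. Psmb7, the trypsin-like subunit, had 548 and 610 CPM in Direct RNA Undiff against 377 and 507 CPM in Day4 (-0.48 ± 0.31) and 383 and 470 CPM against 389 and 317 CPM in cDNA (-0.57 ± 0.39). Psmb5 had too few reads in Direct RNA for the test and gave -1.24 ± 1.15 in cDNA (adjusted p = 0.675).

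Of the inducible catalytic subunits, DESeq2 called Psmb10 lower at Day4 on both platforms and Psmb9 in cDNA, and Psmb8 on neither. Psmb10, the counterpart of Psmb7, had 100 and 63.9 CPM in Direct RNA Undiff and 17.6 and 24.4 CPM in Day4. The cDNA libraries gave 270 and 103 CPM in Undiff and 72.8 and 27.4 CPM in Day4. The groups did not overlap on either platform, and in cDNA replicate 1 was the higher library in both states. Psmb10 (chr8:105935735-105938444) fell on both platforms. DESeq2 gave -1.90 ± 0.65 for Direct RNA (adjusted p = 0.0341) and -2.13 ± 0.58 for cDNA (adjusted p = 0.00442). The Direct RNA call was lost when any 1 of the 4 Direct RNA libraries was left out, and the cDNA call without Undiff replicate 1 and without Day4 replicate 2.

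Psmb9 (chr17:34181987-34187764), the counterpart of Psmb6, lies back to back with the peptide transporter gene Tap1, with which it shares 15.7% of its exon bases on the opposite strand. It had 0 and 6 reads in Direct RNA Undiff and 0 and 0 in Day4, which was too few to test. In cDNA it had 19 and 26 reads in Undiff and 4 and 3 in Day4 (means of 16.2 and 2.24 CPM). It passed the filter on low counts through its Undiff reads. DESeq2 called it lower in cDNA (-2.90 ± 0.91, adjusted p = 0.0177), a call that was lost when any 1 of the 4 cDNA libraries was left out. Psmb8, the counterpart of Psmb5, had 0 and 1 reads in Direct RNA Undiff and 1 and 1 in Day4. Its cDNA reads were 16 and 1 in Undiff and 2 and 0 in Day4, so that 1 library carried the difference. DESeq2 gave -2.98 ± 1.29 (adjusted p = 0.132) and edgeR -3.72 (adjusted p = 0.00201), and without cDNA Undiff replicate 1 the value turned to 0.13. The Day4 to Undiff ratio of its pooled cDNA reads per total was 0.105, with an exact 95% interval of 0.0118 to 0.443 that covers counting error only.

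Psma8, the testis alpha subunit that replaces Psma7 in sperm precursors, had 11 and 23 reads in Direct RNA Undiff and 0 and 2 in Day4. In cDNA it had 37 and 41 reads in Undiff (39.0 and 19.6 CPM) and 1 and 5 in Day4 (0.759 and 2.41 CPM). The groups did not overlap on either platform. Psma8 passed the filter on low counts through its Undiff reads. It fell by DESeq2 on both platforms, with values of -3.27 ± 1.13 for Direct RNA (adjusted p = 0.0376) and -4.10 ± 0.85 for cDNA (adjusted p = 5.54e-05), the lowest among the members tested on each platform. The Direct RNA call was lost without shrinkage (adjusted p = 0.0629) and when any 1 Direct RNA library was left out, and the cDNA call without Undiff replicate 1 (adjusted p = 0.0649). The pooled Direct RNA ratio was 0.0724 with an exact 95% interval of 0.00842 to 0.282. Its level in Undiff, 16.8 CPM per kb in Direct RNA and 17.3 in cDNA, compares with 523 and 1679 CPM per kb for Psma7.

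Summed markers of other cell types were also lower at Day4. Of 8 blood cell markers, 1 could be tested in Direct RNA (Laptm5) and 2 in cDNA (Laptm5 and Cd79a), all called lower at Day4, and Laptm5 held 23 of 25 and 44 of 56 of their reads in the Direct RNA Undiff libraries. Laptm5, Cd79a and the germ cell markers Ddx4 and Mael passed the filter on low counts through their Undiff reads, so the direction of their calls was close to fixed by the filter. The blood marker sum was 61.7 to 71.7 CPM in Direct RNA Undiff against 4.07 to 28.2 CPM in Day4, and 26.4 to 40.2 CPM against 5.30 to 8.34 CPM in cDNA. Ptprc, the defining marker of blood cells, had 0 reads in every library, and Cd52 went the other way, with 0 and 0 reads in Direct RNA Undiff and 1 and 2 in Day4. Of 6 germ cell markers, 2 were tested in Direct RNA, with 1 called lower by DESeq2 (Ddx4) and 2 by edgeR (Ddx4 and Mael). In cDNA 5 were tested, with 0 called by DESeq2 and 2 by edgeR, while Dazl stood at means of 4.02 CPM in cDNA Undiff and 3.92 CPM in cDNA Day4. Their sum was 61.7 to 115 CPM in Direct RNA Undiff against 5.42 to 7.06 CPM in Day4, and 33.0 to 43.2 CPM against 11.4 to 17.3 CPM in cDNA. The part of such cells in the values of Psmb9, Psmb10 and Psma8 was not tested.

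**Figure D4:**
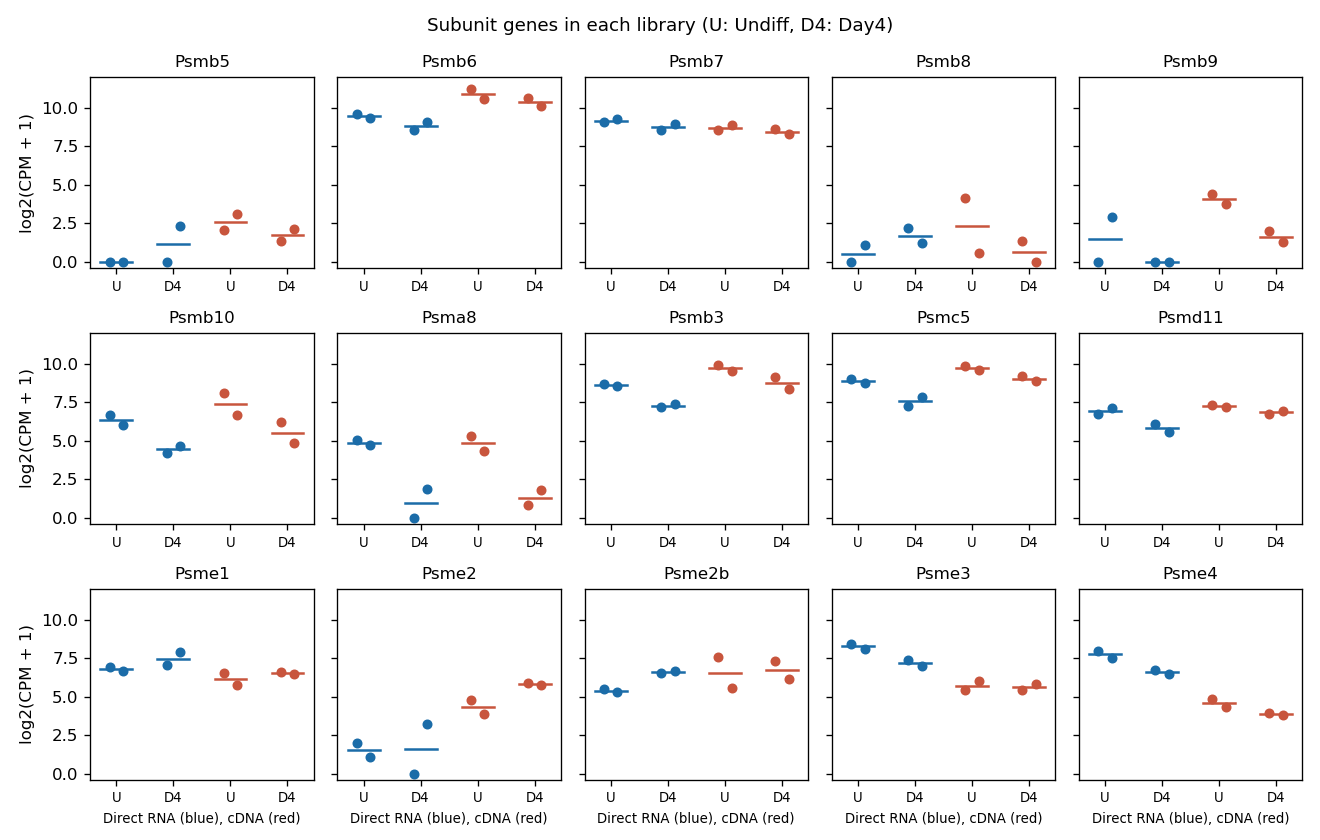
log2(CPM + 1) in each of the 8 libraries for 15 members: the catalytic core subunits, the activators and the members called in Direct RNA, with Psmd11. Points are libraries and bars are means of n = 2, for Undiff (U) and Day4 (D4) on Direct RNA (blue) and cDNA (red). Psmb10 and Psma8 are lower at Day4 in every library on both platforms, whereas Psmb6 and Psmb7 overlap between the states in cDNA.

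All 6 ATPases of the 19S base had both Day4 libraries below both Undiff libraries in Direct RNA, where 33.5% of all genes did, with a median log2 fold change of -0.50. In cDNA this held for 2 of the 6 (Psmc4 and Psmc5), close to the 32.3% of all genes. In CPM it held for 1 with 2 above, where 2378 of 10271 genes lay below and 4429 above. The cDNA median was -0.20. Psmc5 had 519 and 434 CPM in Direct RNA Undiff and 152 and 229 CPM in Day4. It had 937 and 772 CPM in cDNA Undiff and 595 and 462 CPM in Day4. Psmc5 (chr11:106256154-106263120) fell in Direct RNA (-1.37 ± 0.34, adjusted p = 0.00138), and its cDNA value of -0.99 ± 0.39 was not called (adjusted p = 0.0866). The Direct RNA call was lost without either Undiff library and without Day4 replicate 1 (adjusted p of 0.101 to 0.176). At the other end Psmc3 had 268 and 365 CPM in cDNA Undiff and 467 and 391 CPM in cDNA Day4 (0.13 ± 0.39), though its Direct RNA libraries had 387 and 332 CPM in Undiff against 215 and 301 CPM in Day4 (-0.55 ± 0.34).

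The 3 non-ATPase base subunits, the scaffolds Psmd1 and Psmd2 and the ubiquitin receptor Psmd4, gave values of -0.91, -0.85 and -0.80 in Direct RNA and of -0.58, -0.37 and -0.18 in cDNA. The 8 lid members were the only group of more than 3 genes that all had Day4 below Undiff on both platforms. This held for 24.6% of all genes (33.5% in Direct RNA and 32.3% in cDNA). On CPM it held for 6 of the 8 in cDNA, where 2378 of 10271 genes lay below and 4429 above. Psmd6 lay above, with 363 and 410 CPM in Undiff and 426 and 463 CPM in Day4. The 8 had a median of -0.85 in Direct RNA and of -0.72 in cDNA, and none was called by DESeq2. The lid subunit Shfm1, which the symbol rule missed, went the other way and was not called. It had 244 and 261 CPM in Direct RNA Undiff and 349 and 437 CPM in Day4 (0.53 ± 0.33). In cDNA it had 1176 and 1021 CPM in Undiff and 1851 and 1253 CPM in Day4 (0.19 ± 0.40). Psmd14, the deubiquitinase, had 258 and 296 CPM in Direct RNA Undiff against 123 and 186 CPM in Day4 (-0.91 ± 0.38), and 346 and 447 CPM against 247 and 313 CPM in cDNA (-0.81 ± 0.37). Psmd12, a scaffold of the lid, had 462 and 386 CPM in Direct RNA Undiff against 258 and 236 CPM in Day4 (-0.87 ± 0.32, adjusted p = 0.0569), and 703 and 638 CPM against 430 and 456 CPM in cDNA (-0.91 ± 0.37, adjusted p = 0.0942).

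Psmd11 is the lid subunit that clamps the lid to the core, and it is known for its high level and its part in proteasome assembly in human ES cells. It had 106 and 136 CPM in Direct RNA Undiff and 67.0 and 47.5 CPM in Day4. In cDNA the values were 161 and 145 CPM in Undiff and 105 and 123 CPM in Day4. The states did not overlap on either platform. The Direct RNA log2 fold change of -1.19 ± 0.51 was not called by DESeq2 (adjusted p = 0.123) and was called by edgeR (-1.26, adjusted p = 0.00701), and the cDNA value was -0.74 ± 0.41 (adjusted p = 0.307). In Undiff, Psmd11 had the lowest level per kilobase of the 17 base and lid genes in Direct RNA (42.4 CPM per kb, where the median was 188 and Psmc5 was highest with 362).

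The 3 chaperones that assemble the base and leave the finished particle (Psmd5, Psmd9 and Psmd10) shifted less. Their median was -0.20 in Direct RNA and 0.01 in cDNA. Psmd9 had 37.3 and 59.5 CPM in Direct RNA Undiff against 35.3 and 59.7 CPM in Day4 (-0.12 ± 0.65). Its cDNA libraries had 79.1 and 82.4 CPM in Undiff and 108 and 93.9 CPM in Day4 (0.01 ± 0.45). Whether chaperones differed from the base and lid in their change was not tested.

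DESeq2 called the nuclear activators lower in Direct RNA and no activator in cDNA. Psme3 had 344 and 268 CPM in Direct RNA Undiff and 166 and 127 CPM in Day4. In cDNA it was low in all libraries, with 41.1 and 64.6 CPM in Undiff and 41.7 and 55.4 CPM in Day4. Psme3 (chr11:101316213-101323537) fell in Direct RNA (-1.16 ± 0.37, adjusted p = 0.02), while the cDNA groups overlapped in CPM (-0.44 ± 0.50, adjusted p = 0.781). Its Direct RNA call was lost when any 1 Direct RNA library was left out, and with at least 10 reads required in every library the value was -0.98, under the size threshold. Psme4 (chr11:30771726-30880361) had 250 and 183 CPM in Direct RNA Undiff and 106 and 86.8 CPM in Day4. Its cDNA values were 27.4 and 18.7 CPM in Undiff and 14.4 and 13.0 CPM in Day4, without overlap. Psme4 fell in Direct RNA (-1.25 ± 0.42, adjusted p = 0.0285) and was not called in cDNA (-1.02 ± 0.68, adjusted p = 0.447). This Direct RNA call was also lost when any 1 Direct RNA library was left out.

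DESeq2 called none of Psme1, Psme2 and Psme2b on either platform, while edgeR called Psme2b higher in Direct RNA. Psme1 had 118 and 100 CPM in Direct RNA Undiff and 131 and 237 CPM in Day4 (0.67 ± 0.45, adjusted p = 0.448), and 90.7 and 53.1 CPM against 94.1 and 85.7 CPM in cDNA, where the log2 fold change was 0.00 and its sign turned with the scaling. Reads of Psme2 were 1 and 1 in Direct RNA Undiff, 0 and 6 in Direct RNA Day4, 25 and 29 in cDNA Undiff and 76 and 109 in cDNA Day4. The cDNA groups did not overlap (26.4 and 13.9 CPM against 57.7 and 52.5 CPM), with a log2 fold change of 1.11 ± 0.58 (adjusted p = 0.263 by DESeq2 and 0.0597 by edgeR). Its retrocopy Psme2b had 43.0 and 38.6 CPM in Direct RNA Undiff and 91.7 and 100 CPM in Day4 (1.10 ± 0.55, adjusted p = 0.228 by DESeq2 and 0.0222 by edgeR).

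In cDNA, Psme2b had 188 and 45.5 CPM in Undiff and 157 and 68.4 CPM in Day4, so that replicate 1 exceeded replicate 2 in both states and the states overlapped (-0.35 ± 0.62). Since the printed stretches of the pair differ by 1 base, the summed value is the safer one. Psme2 and Psme2b together had 45.9 and 39.7 CPM in Direct RNA Undiff and 91.7 and 108 CPM in Day4, without overlap. In cDNA the sums were 214 and 59.4 CPM in Undiff and 215 and 121 CPM in Day4, with overlap. The read share of the pair also differed by platform, as Psme2 took 1 of 16 and 1 of 36 reads of the pair in the Direct RNA Undiff libraries but 25 of 203 and 29 of 124 in cDNA.

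Psmc3ip, the row outside the proteasome, had 51.7 and 26.4 CPM in Direct RNA Undiff against 14.1 and 47.5 CPM in Day4, and 37.9 and 19.6 CPM against 13.7 and 17.8 CPM in cDNA. Neither its Direct RNA value of -0.30 ± 0.77 nor its cDNA value of -1.15 ± 0.65 was called.

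Whether the state change of a member differed between the platforms was tested as an interaction over all 8 libraries. DESeq2 called 0 of the 44 members with reads, and 0 had an unadjusted p of at most 0.05. Among all 17267 genes tested it called 0.0116% with a lower and 0.0% with a higher change in cDNA, and edgeR called 0 members, with 0.0811% of all genes called lower. The lowest unadjusted DESeq2 p-values were those of Psmb8 (0.0857) and Psme2b (0.0948, interaction of -1.54 ± 0.92 on the log2 scale). edgeR gave unadjusted p-values of 0.0209 for Psme2b, 0.0262 for Psmb5 and 0.041 for Psmb8, each with an adjusted p of 1. Calls made in Direct RNA and not in cDNA, such as Psme3, are thus not shown to differ between platforms. Across the 39 subunits tested on both, the log2 fold changes of the 2 platforms had a Pearson r of 0.81 and a Spearman rho of 0.73, as a description over genes, which are not independent replicates. Over all 8720 genes tested on both, r was 0.91 and rho 0.86.

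The second comparison asked how the platforms differed for the same subunits. With state as a covariate, the median log2 fold change of cDNA over Direct RNA was 1.43 over the 42 members tested, against -0.02 over 10426 genes. DESeq2 called 28 members higher in cDNA, where 24.7% of all genes were called higher, and 5 lower, where 26.6% were called lower. Psmb9 and Psme2 passed the filter on low counts through their cDNA reads, so their calls are no support for the count. The core had a median of 1.97 (12 of 16 higher and 1 lower), the regulatory particle of 1.39 (14 of 20 higher and 2 lower) and the activators of -0.07 (2 of 5 higher and 2 lower). The CPM scale differed from the DESeq2 scale by a mean of -0.75 in the log2 scaling factors of cDNA against Direct RNA, and the class medians from mean CPM were 1.22, 0.68 and -0.82. Kit, PCR, RNA input and, for some libraries, the base caller changed together and cannot be told apart. The study describes both kits as run on RNA of the same duplicate samples, so the 8 libraries may not be independent in this fit and in the interaction.

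Psme2 had the highest value, 3.85 ± 0.61 (adjusted p = 3e-09), but it passed the filter on low counts through its cDNA reads and its reads cannot be told safely from those of Psme2b, so its place in this order is uncertain. It was followed by Psma3, an alpha subunit, which had between 81.1 and 152 CPM in the 4 Direct RNA libraries and between 472 and 646 CPM in the 4 cDNA libraries (2.83 ± 0.20, adjusted p = 1.18e-43). Psma7 had 374 to 551 CPM in Direct RNA and 1532 to 2015 CPM in cDNA (2.58 ± 0.23, adjusted p = 3.91e-28). Neither alpha subunit overlapped between platforms. Psmb9 followed with 2.50 ± 0.81 (adjusted p = 0.00767) from few reads, and it too passed the filter on low counts through its cDNA reads. Psmd7, a lid subunit, had 287 to 540 CPM in Direct RNA and 953 to 1518 CPM in cDNA (2.43 ± 0.22, adjusted p = 4.18e-25).

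At the other end stood Psme4, with 86.8 to 250 CPM in Direct RNA and 13.0 to 27.4 CPM in cDNA (-2.26 ± 0.29, adjusted p = 1.48e-13). The lid subunit Psmd3 had 233 to 410 CPM in Direct RNA and 29.8 to 49.8 CPM in cDNA (-2.23 ± 0.21, adjusted p = 4.37e-24). Psme3 gave -1.30 ± 0.24 (adjusted p = 8.31e-07). For these genes no cDNA library reached the lowest Direct RNA library. Psma4 had 176 to 307 CPM in Direct RNA and 60.7 to 80.9 CPM in cDNA (-1.23 ± 0.23, adjusted p = 4.32e-07), and Psmd2 had 224 to 557 CPM against 75.9 to 133 CPM (-1.12 ± 0.24, adjusted p = 2.38e-05). Psma4 and Psmd2 are among the members with a copy, and Psma4 shares 9.8% of its exon bases with a gene on the opposite strand.

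Some subunits of 1 particle took different places in the order of levels on the platforms. Per kilobase, Psmd3 was the lowest of the 17 base and lid genes in cDNA Undiff (21.4 CPM per kb, median 250) and stood at 174 CPM per kb in Direct RNA Undiff, near the median of 188. Psmd7 kept its place near the top, as the highest in cDNA Undiff with 841 CPM per kb and second to Psmc5 in Direct RNA Undiff with 289 CPM per kb. In the core, Psmb4 was second to Psmb6 in Direct RNA Undiff (575 CPM per kb) and had 256 CPM per kb in cDNA Undiff, where the median of the 14 was 567.

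Transcript length moved with the platform difference, both for subunits and for all genes. The Spearman rho between length and the log2 fold change of cDNA over Direct RNA was -0.38 over 41 subunits and -0.34 over 9877 genes, as a description. Subunits under 1500 bases had a median of 1.55 (20 genes, 16 called higher and 1 lower), where all 1551 genes of that length had 1.33, with 58.7% called higher and 10.3% lower. From 1500 to 2500 bases the 12 subunits had a median of 1.09 and all genes 0.36, and from 2500 bases the 9 subunits had 0.61 and all genes -0.56. In each length class the subunit median lay above that of all genes, and this difference was not tested.

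**Figure D5:**
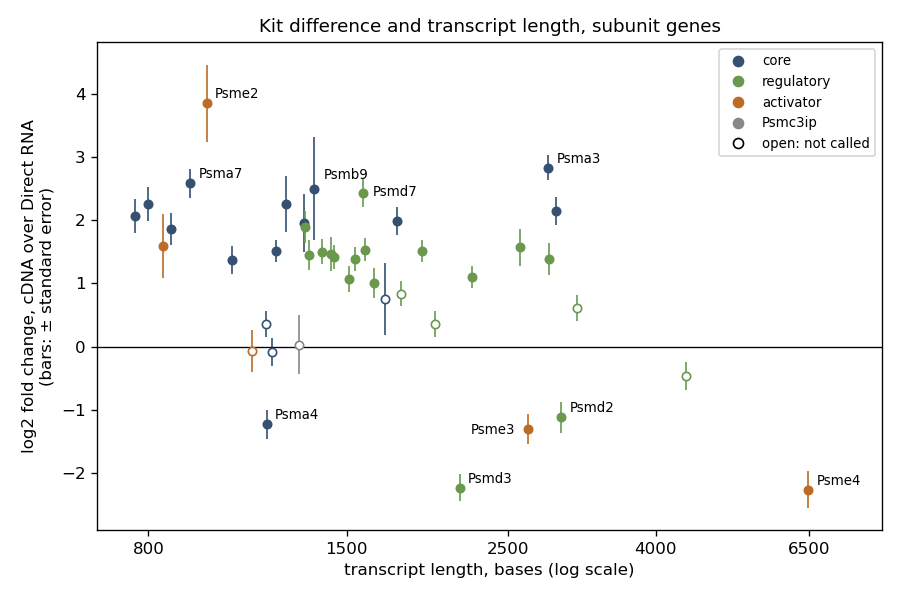
Log2 fold change of cDNA over Direct RNA (DESeq2, bars ± standard error) against transcript length in bases (log axis) for 42 members, with filled points for called members. Short subunits lie mostly above 0, and Psme4, the longest, lies at -2.26, with Psma3 at 2.83 and Psmd3 at -2.23 away from the trend.

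The wider pathway was described by lists of genes without a Psma to Psme symbol. None of the 5 chaperones that assemble the core (Psmg1 to Psmg4 and Pomp) was called on either platform, with medians of -0.47 in Direct RNA and -0.60 in cDNA. Among 9 other subunits and bound factors, DESeq2 called 1 lower in Direct RNA (7.67% of all genes) and 0 in cDNA, and edgeR also called AI314180 higher in Direct RNA (2.32, adjusted p = 0.00059). The gene called lower was Uchl5, a deubiquitinase of the 19S particle, with 241 and 218 CPM in Direct RNA Undiff against 109 and 99.0 CPM in Day4 (-1.23 ± 0.40, adjusted p = 0.0227). In cDNA it had 405 and 433 CPM against 269 and 248 CPM (adjusted p = 0.0691). Of 5 genes of proteasome transcription and its control, 4 were tested in Direct RNA and 3 in cDNA with 0 called by DESeq2, at medians of 1.03 and 0.84, and edgeR called 1 (Keap1) higher in cDNA. Nfe2l1 itself stood at -0.11 ± 0.48 in Direct RNA and -0.04 ± 0.57 in cDNA, below those medians.

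The list of ubiquitin genes and shuttles had 12 of 13 tested, with a median of -0.44 in Direct RNA and -0.34 in cDNA. In Direct RNA DESeq2 called 1 of them lower (7.67% of all genes) and edgeR 2 (15.1%). Ubqln4, a shuttle that brings ubiquitinated proteins to the proteasome, fell in Direct RNA from 253 and 207 CPM to 102 and 97.6 CPM (-1.27 ± 0.40, adjusted p = 0.0176). Rps27a, which encodes ubiquitin fused to a ribosomal protein, fell in cDNA from 801 and 548 CPM in Undiff to 273 and 207 CPM in Day4 (-1.78 ± 0.42, adjusted p = 0.000521). Its Direct RNA libraries had 158 and 162 CPM in Undiff and 49.4 and 86.8 CPM in Day4, which DESeq2 did not call (-1.25, adjusted p = 0.0665) and edgeR did (-1.25, adjusted p = 0.00429).

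Immunoproteasomes serve antigen presentation. Of 12 genes of MHC class I processing and the interferon response, 7 were tested on each platform, with medians of 0.18 and 0.35. DESeq2 called 1 of them higher on each platform, where 9.54% and 8.69% of all genes were called higher, and 0 lower, while edgeR also called Irf1, a transcription factor of the interferon response, lower in Direct RNA (-1.65, adjusted p = 0.0187). The gene called higher was B2m, the light chain of MHC class I, which rose on both, from 45.9 and 19.8 CPM to 243 and 249 CPM in Direct RNA (2.83 ± 0.49, adjusted p = 4.52e-07) and from 118 and 46.9 CPM to 429 and 312 CPM in cDNA (1.80 ± 0.50, adjusted p = 0.00532). In the same libraries Psmb10 fell on both platforms.

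Promoters were examined because most members lay on the same side of 0. Nfe2l1 and Nfe2l2 bind the antioxidant response element, searched here on both strands as TGACNNNGC in the 250 bases before and 50 after each start in the RefSeq table (GRCm38.p6). The motif was found in 6 of the 38 members matched in that table (15.8%), against 3781 of 27025 genes, and the CCAAT box in 15 (39.5%) against 41.1%, so neither share stood far from that of all genes. The matched stretches of the 6 members are shown in the direction of the gene, with the motif, or its reverse complement, in capitals.
Psmb5: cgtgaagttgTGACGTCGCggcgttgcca
Psmb6: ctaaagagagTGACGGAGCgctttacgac
Psmc6: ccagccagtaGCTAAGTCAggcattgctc
Psmd12: tctGCTGTGTCAcatttgcccc
Psmd9: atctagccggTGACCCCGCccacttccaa
Psme4: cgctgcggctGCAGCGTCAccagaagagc
They lie at chr14:54618024-54618052 (Psmb5, minus strand), chr11:70525338-70525366 (Psmb6, plus), chr14:45329587-45329615 (Psmc6, plus), chr11:107479278-107479299 (Psmd12, plus), chr5:123228149-123228177 (Psmd9, plus) and chr11:30771758-30771786 (Psme4, plus). A match is a run of letters and not a site shown to be bound. Of the 6 genes, DESeq2 called Psme4 lower in Direct RNA, where 7.67% of all genes were, and Psmb5 could not be tested there.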

How the data were processed

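The members and all gene lists were chosen with earlier results of these data known. The deposited tables hold raw read counts, 1 row per gene symbol. The authors aligned ONT reads to mm10 with minimap2 without secondary alignments and counted them with htseq-count on the UCSC annotation of iGenomes. Gene counts were made by strand for Direct RNA, whereas the strand setting of the cDNA gene counts is not spelled out. The authors' exon counts of ONT reads used strand for Direct RNA only. Opposite-strand neighbours could thus add or remove cDNA reads. Here, DESeq2 1.42.0 in R 4.3.3 was fitted to all 24421 genes of each platform with the study's settings (shrunken log2 fold changes, no Cook's cutoff, no independent filtering). A gene was called where its Benjamini-Hochberg adjusted p was at most 0.05, its log2 fold change was 1 or more in either direction and its normalized counts averaged 5 or more. The platform difference was fitted over all 8 libraries beside a term for state. The interaction was unshrunken with the adjusted p alone. edgeR 4.0.16 (quasi-likelihood, TMM) was the alternative. The 5 counters of unassigned reads entered no step. On data simulated with 200 changed genes per comparison, DESeq2 recovered 71.5% of them for Direct RNA, 81.5% for cDNA, 99.5% for the platform difference and 79% for the interaction. The simulated shifts were larger than most shifts of the members. They were set in genes above a minimum count, at 1 fixed spread between replicates. These rates are therefore no estimate of how often changes of the members' size would be called. Replicates of a group differed by more than sampling noise (chi-square per degree of freedom of 2.68 to 14.9), and all libraries were kept. They were grown and treated separately according to the methods, and p-values rest on the spread of 2 per group. Intervals and the limit of 3 reads cover counting error only. Copies were found by blastn 2.17.0 among annotated mouse transcripts, and lengths are those of GENCODE transcripts linked to RefSeq. Named members were the catalytic, inducible and activator genes, all called members, the 5 highest and 5 lowest platform differences, members with at most 3 reads in any library, and Psmc3ip, and other members stand as examples of their group chosen after their values were seen. Illumina libraries were not analysed here. The result of 1 gene of the pathway lists is not reported here.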

Additional observations from a re-analysis of the deposited data

How the results depend on the processing

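In Direct RNA the 6 members called lower at Day4 became 7 with edgeR (15.1% of all genes), 3 with at least 10 reads required in every library (7.58% of 4579 genes), and 0 to 3 when 1 library was left out (1.42% to 4.02% of all genes), where the lone library of a state is assumed to vary like the others. The 0 called higher became 1 with edgeR (Psme2b). With 1 library left out, the Direct RNA core median ranged from -0.84 to -0.22. In cDNA the 3 members called lower became 5 with edgeR (15.6% of all genes), 1 with at least 10 reads (9.1% of 5351 genes), and 0 to 3 with 1 library left out (3.93% to 4.38%). The cDNA core median of -0.56 became -0.13 over the 14 genes with at least 10 reads, and -0.26 from mean CPM, and ranged from -0.72 to -0.38 with 1 library left out. The cDNA regulatory median of -0.36 became -0.03 from mean CPM and ranged from -0.62 to -0.24, and the cDNA activator median of -0.35 ranged from -0.41 to 0.42. Members with both cDNA Day4 libraries above both Undiff libraries numbered 1 in normalized counts and 8 in CPM. Of all 10271 genes, 3567 did so in normalized counts and 4429 in CPM. The CPM count was an alternative added after seeing the data, as was the use of mean CPM for medians. For cDNA over Direct RNA, 28 members called higher became 18 with at least 10 reads (23.2% of 3567 genes), and the core, regulatory and activator medians became 1.51, 0.98 and -1.08 with that filter and 1.22, 0.68 and -0.82 from mean CPM. The cause of the shifts with that filter was not tested. Same-numbered replicates of the 2 states are not stated to share more than a number. Their deviations correlated at 0.214 between the Direct RNA states and 0.5 between the cDNA states, and at 0.124 (Undiff) and -0.416 (Day4) between platforms. With a replicate block, 2 members were called lower in Direct RNA (Psmb3 and Psmc5, with Psma8, Psmb10, Psme3 and Psme4 lost) and 4 in cDNA, where Psmb3 and Psmc5 were gained and Psmb9 lost. Crossing the Day4 numbers between platforms gave 28 members higher and 5 lower in cDNA and 0 interactions. Signs turned in cDNA for Psmb8 (-3.82 to 0.13 with 1 library left out, the highest without Undiff replicate 1), for Psme2b (-1.08 to 0.97 with 1 library left out, with 0.97 without Undiff replicate 1 and 0.21 without Day4 replicate 2) and for Psme1, which stood at 0.04 with edgeR and with TMM factors in DESeq2, 0.17 with at least 10 reads, 0.03 with the replicate block, 0.42 without Undiff replicate 1 and 0.19 without Day4 replicate 2. Of the values of named members under the alternatives, 79 of 108 in Direct RNA, 123 of 146 in cDNA and 145 of 148 between platforms kept their direction and their side of the threshold. Psmb5, Psmb8, Psmb9, Psmb11 and Psme2 had too few reads in Direct RNA for the test at this depth.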
